A study of Homo sapiens with 8 samples.

Results

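Transcripts of 10 genes of inflammatory signaling were followed in PNT2 cells, which are human prostate epithelial cells immortalized for culture. They comprised the interleukin-1 cytokines *IL1A*, *IL1B* and *IL18*, the interleukin-6 family cytokines *IL6* and *LIF*, the chemokines *CXCL8*, *CXCL1*, *CXCL2* and *CCL20*, and the receptor subunit *IL20RA*. The 9 ligand genes were taken for their function, but with earlier results of these data known. *IL20RA* was taken from the genes that the study assigned to both CIC and ERF with its lower level already known, so its fall against WT is described here and is not independent evidence. The 10 genes were among 33791 with transcripts in the files, and 9 of them passed the filter on low counts that left 14653 genes to test. *CCL20* did not pass.

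RNA-seq had been performed in duplicate (replicates A and B) in 4 groups: the parental line (WT), the double-loss line *ERF* KD + *CIC* KO, and the single-loss lines, which carry the labels *CIC* KO and *ERF* KD. The double-loss libraries carry the genotype label CIC-ERF codeletion, and the name *ERF* KD + *CIC* KO is the one in the study's methods. CIC and ERF are transcriptional repressors whose genes lie next to each other, and the study compared the losses to ask how the repressors act alone and together. Every line descended from the same PNT2 parent and was kept in DMEM with fetal bovine serum. Short hairpin RNA against *ERF*, selected with puromycin, lowers the amount of its mRNA. Cas9 with a guide against *CIC*, selected with blasticidin, cuts the gene and need not change its mRNA level. The double-loss line received both. The labels do not say which hairpin or guide a library came from, or whether replicates were separate cultures, so the p-values measure the spread between these libraries, which may be technical.

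The mRNA of the silenced gene went against the single-loss labels. *ERF* was at 55.8 and 55.9 CPM (read counts scaled to library size by TMM) in WT and at 81.2 and 77.8 CPM under the label *ERF* KD. It was at 18.8 and 11.7 CPM under the label *CIC* KO and at 11.6 and 10.4 CPM in the double-loss line. The deposited names of the 4 single-loss files carry the opposite letters as well. *CIC* mRNA was at 128 and 129 CPM in WT, 109 and 109 CPM under the label *ERF* KD, and 132 and 131 CPM under the label *CIC* KO. In the double-loss line it was at 90.9 and 66.4 CPM. Its change under the label *ERF* KD did not pass (edgeR adjusted p = 0.384). The study's methods list qPCR and western blots of CIC and ERF as the check of its stable lines, which are not analysed here. The labels were kept, and every direction given for a single-loss group rests on a label that *ERF* mRNA contradicts. Library totals ran from 19477473 to 25813157 estimated counts, and 3 counts, the floor used here, were at most 0.165 CPM.

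Interleukin-1 alpha and beta are early alarm signals that act on one receptor and switch on NF-kB and AP-1, transcription factors that in turn drive the genes of interleukin-6 and the CXC chemokines. *IL1A* and *IL1B* lie side by side on chromosome 2 and the CXC chemokine genes in a cluster on chromosome 4. Epithelial cells, the prostate's included, make these factors on injury or infection, and the chemokines recruit neutrophils.

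The proximal promoters show what the genes share before any level is considered. RefSeq promoter sequences (GRCh38.p14, 250 bases before to 50 after a start) were found for 8 of the 10 genes, with 2 starts for *IL1A* and for *IL20RA*; *LIF* and *IL18* had no entry. They were searched on both strands for the kappaB consensus (also in a form with T as first base), the AP-1 site TGANTCA, the CIC octamers TGAATGAA, TGAATAAA, TCAATGAA and TCAATAAA, and the ETS core GGAA that ERF recognizes. The stretches below end at the base before the start, read 5′ to 3′ along the gene, and carry the kappaB, AP-1 and CIC octamer matches in capitals.
CXCL1 (chr4:73869263-73869392, plus strand): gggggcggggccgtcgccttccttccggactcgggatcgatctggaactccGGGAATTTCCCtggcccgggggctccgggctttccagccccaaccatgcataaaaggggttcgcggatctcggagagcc
CXCL2 (chr4:74099196-74099325, minus strand): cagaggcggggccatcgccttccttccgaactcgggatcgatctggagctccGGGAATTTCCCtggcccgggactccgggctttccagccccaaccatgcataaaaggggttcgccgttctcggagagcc
CXCL8 (chr4:73740419-73740568, plus strand): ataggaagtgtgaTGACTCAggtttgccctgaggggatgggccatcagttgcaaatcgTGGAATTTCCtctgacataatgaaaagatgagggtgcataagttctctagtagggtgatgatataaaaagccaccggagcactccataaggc
IL6 (chr7:22727090-22727199, plus strand): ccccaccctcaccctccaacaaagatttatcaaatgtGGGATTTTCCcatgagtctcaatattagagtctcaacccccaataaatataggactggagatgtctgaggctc
IL1A (chr2:112784494-112784643, minus strand): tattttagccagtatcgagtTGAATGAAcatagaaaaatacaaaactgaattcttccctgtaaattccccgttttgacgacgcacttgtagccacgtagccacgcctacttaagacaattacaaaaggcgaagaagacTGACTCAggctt
IL1B (chr2:112836780-112836909, minus strand): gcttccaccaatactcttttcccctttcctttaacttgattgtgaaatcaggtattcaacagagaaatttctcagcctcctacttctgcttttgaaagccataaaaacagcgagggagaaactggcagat
IL20RA (chr6:137044966-137045115, minus strand): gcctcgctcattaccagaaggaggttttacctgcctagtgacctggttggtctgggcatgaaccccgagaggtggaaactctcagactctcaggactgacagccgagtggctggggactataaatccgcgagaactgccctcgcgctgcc

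The first 4 stretches are shown for their kappaB matches, *IL1A* for its CIC octamer, and *IL1B* and *IL20RA* because the values below turn on them. *CXCL1* and *CXCL2* had the same kappaB match, found on both strands one base apart, inside a run of 24 identical bases, and a further run of 42 identical bases nearer the start. Strict kappaB matches were found in *CXCL1*, *CXCL2*, *IL6* and *CCL20*, against 5.91% of the 35116 promoters of this length. *CXCL8* had the form with T first, and 10.2% of all promoters held either form. AP-1 matches were found in *CXCL8* and *IL1A*, against 7.71% of promoters, the *CXCL8* one lying at -137 to -131 from its start. *IL1A* held 2 CIC octamers, at -224 to -217 and at -130 to -123, where 4.52% of promoters held any. *IL1B* and *IL20RA* held none of these matches in their windows. GGAA was present in all 8 genes, as in 95.5% of promoters, and overlapped the kappaB matches in *CXCL1*, *CXCL2*, *CXCL8*, *IL6* and *CCL20*. A match describes letters only.

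Per length of transcript, the most abundant of the 10 were *IL6* and *IL18*, at a mean over the 8 libraries of 34.2 and 30.5 TPM (the deposited length-scaled unit), followed by *LIF* at 13.6 TPM. *CXCL8* (8.18 TPM) and *CXCL1* (7.48 TPM) came next. *IL1B* (2.8 TPM), *CXCL2* (2.3 TPM), *IL20RA* (2.01 TPM), *CCL20* (0.608 TPM) and *IL1A* (0.5 TPM) were low. The epithelial keratin genes *KRT8* and *KRT18* were at 533 to 1980 CPM in every library. Of 10 leukocyte markers 6 did not pass the filter on low counts, among them *CD3E*, *MS4A1* and *TYROBP*, each at no more than 0.186 CPM in any library. The other 4 passed. *PTPRC* was at 0.625 to 1.09 CPM, *CD14* at 0.497 to 9.82, *CSF1R* at 0.646 to 13.4 and *CD68* at 5.54 to 51.8 CPM.

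**Figure D1:**
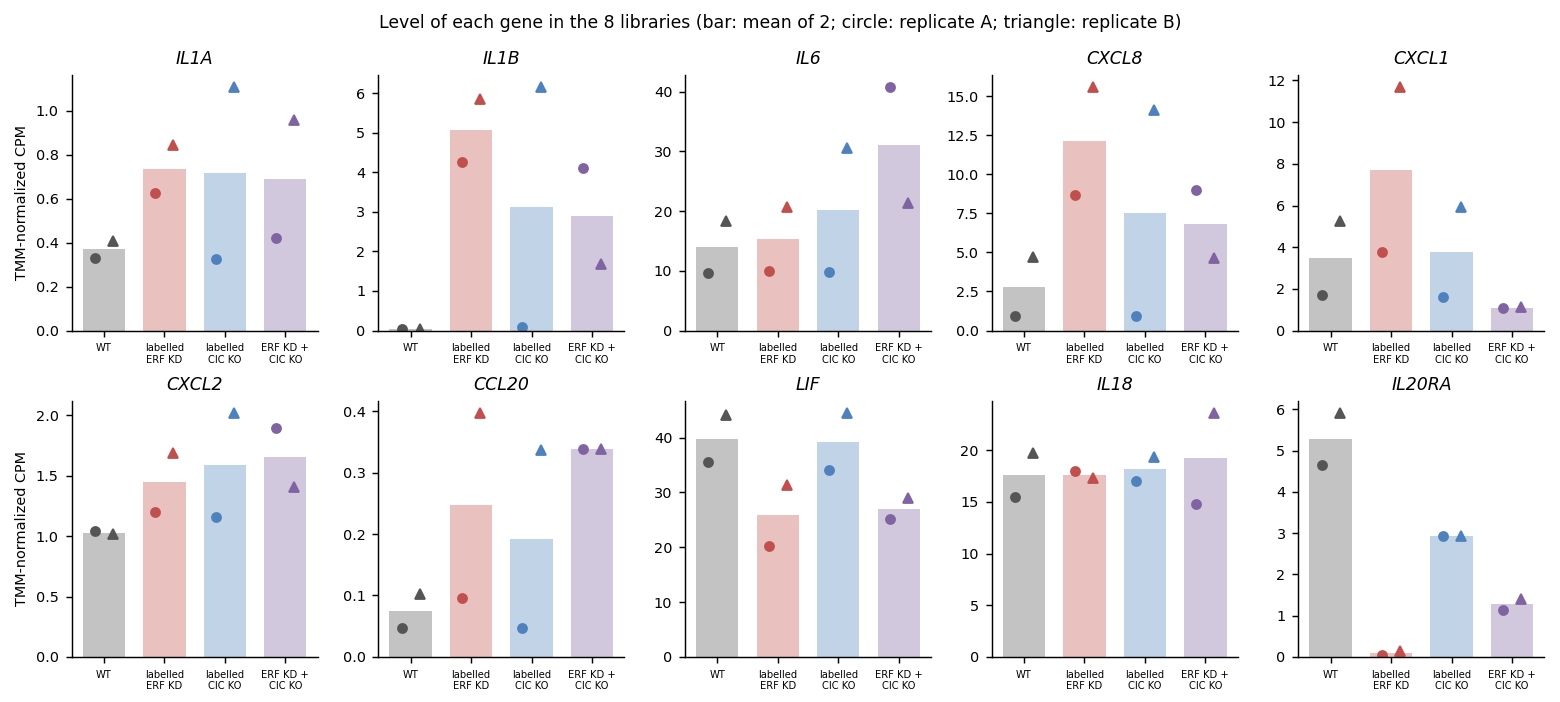
Level of each of the 10 genes in the 8 libraries in TMM-normalized CPM on linear axes from 0, with circles for replicate A, triangles for replicate B and bars for the mean of the 2 libraries. *IL20RA* is near 0 in both libraries labelled *ERF* KD, *IL1B* is near 0 in both WT libraries and in labelled *CIC* KO replicate A, and in the cytokine panels the replicates of a group often stand far apart.

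*IL20RA*, the alpha chain with which *IL20RB* forms the receptor for interleukins 19, 20 and 24, was the only one of the 10 called at an adjusted p under 0.05 (edgeR's quasi-likelihood test, Benjamini-Hochberg adjustment over all genes tested), in each of the comparisons where any was called. It was at 4.65 and 5.91 CPM in WT, 0.048 and 0.149 CPM in the libraries labelled *ERF* KD, 2.93 and 2.93 CPM in those labelled *CIC* KO, and 1.14 and 1.41 CPM in *ERF* KD + *CIC* KO. The order was WT, labelled *CIC* KO, *ERF* KD + *CIC* KO, labelled *ERF* KD, and no 2 groups overlapped. The libraries labelled *ERF* KD rested on 1 and 3 reads against 98 and 116 in WT, so the level in WT was 53.9 times theirs with an exact 95% counting interval of 20.7 to 200.0. That interval, like the other counting intervals here, covers counting error only.

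Against WT, *IL20RA* differed by a log2 fold change of -5.67 ± 0.53 (SE, n = 2 libraries a group) in the cells labelled *ERF* KD (adjusted p = 0.00048). It differed by -0.85 ± 0.373 in those labelled *CIC* KO (adjusted p = 1.0). In *ERF* KD + *CIC* KO the change was -2.05 ± 0.395 with adjusted p = 0.0962, and adjusted p = 0.0335 once the letters were blocked in edgeR. The double-loss cells held more *IL20RA* than the cells labelled *ERF* KD, by 3.62 ± 0.549 (adjusted p = 0.0049). The difference between the single-loss groups was -4.82 ± 0.532, labelled *ERF* KD minus labelled *CIC* KO (adjusted p = 0.00102). Both differences use the labelled *ERF* KD libraries whose low level was already known, so they too are descriptions and not independent evidence.

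The interaction of the losses is the double-loss change less the sum of the single-loss changes, and it stays the same if the single-loss labels are exchanged. For *IL20RA* it was 4.47 ± 0.669 (adjusted p = 0.00992), so the double-loss level lay above what the single-loss changes add up to. Leaving out each library in turn kept this between 3.89 and 5.41, with adjusted p of at most 0.0431. On log2(TPM + 1), a scale that compresses genes this low, it was 1.95 with adjusted p = 0.0526. The interaction includes the fall for which the gene was taken, so it too is a description and not independent evidence.

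The files split *IL20RA* over 7 transcripts, and IL20RA-207 held 50.3% to 75.0% of its counts in each group. Outside the 10 genes, the 3 protein-coding genes whose log2 CPM followed *IL20RA* most closely over the 8 libraries were *SLPI*, *FGD6* and *PTPRF*, with Pearson r of 0.996, 0.993 and 0.99 among 12599 genes. *SLPI*, a secreted inhibitor of neutrophil elastase, was at 22.8 and 28.3 CPM in WT and at 0.336 and 0.497 CPM in the libraries labelled *ERF* KD. Its values in *ERF* KD + *CIC* KO were 5.21 and 4.79 CPM. These are descriptions over 8 points that share groups.

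The fall of *IL20RA* stood beside lower epithelial and higher mesenchymal marker levels. Summed over 6 epithelial markers, the libraries labelled *ERF* KD were at 1300 and 1590 CPM and the other 6 libraries at 3080 to 4270 CPM. Summed over 7 mesenchymal markers they were at 1830 and 2240 CPM against 144 to 322 CPM. Of the epithelial markers 5 of 6 fell against WT in edgeR, *CDH1* (-4.41), *KRT14* (-4.35), *KRT5* (-3.45) and *EPCAM* (-3.07) most. Of the mesenchymal markers 4 of 7 rose, namely *COL3A1* (3.55), *VIM* (3.45), *ZEB1* (2.78) and *CDH2* (1.81). In this comparison 10.1% of all genes were called, 890 down and 587 up. *COL3A1* was at 9.89 and 1.79 CPM in labelled *ERF* KD against 0.427 and 0.561 CPM in WT, so its change rests largely on replicate A. *CDH1* was at 17.6 CPM in each library labelled *ERF* KD and at 362 and 385 CPM in WT, and *VIM* at 1500 and 1950 against 105 and 211 CPM. In bulk RNA, fewer cells of a type and less RNA per cell cannot be told apart, and the part of this change in the *IL20RA* values was not tested.

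Of the 10 genes *IL1B* gave the largest ratio to WT, and it did not pass the adjusted threshold. In WT it was at 0.0475 and 0.051 CPM, 1 read in each library. The libraries labelled *ERF* KD held 4.27 and 5.86 CPM, or 89 and 118 reads. *ERF* KD + *CIC* KO held 4.11 and 1.69 CPM, or 97 and 30 reads. Within the label *CIC* KO, replicate A was at 0.093 CPM and replicate B at 6.16 CPM, 2 reads against 128. Thus the highest and the third lowest *IL1B* level of all 8 libraries came from 1 group. None of the other 3 groups overlapped WT. For labelled *CIC* KO that separation is 2 reads in replicate A against 1 read in each WT library. These lie below the floor of 3 counts, so they cannot be told apart.

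Summed over replicates, *IL1B* in labelled *ERF* KD was 103 times WT, with an exact 95% counting interval of 28.1 to 854. The ratio was 62.4 (16.9 to 521) in *ERF* KD + *CIC* KO. For labelled *CIC* KO it was 62.5 (17.0 to 522), nearly all from replicate B. The fitted log2 change for labelled *ERF* KD was 6.52 ± 1.75 (edgeR adjusted p = 0.0532), and adjusted p = 0.03 with the replicate block. Without either library labelled *CIC* KO the value stayed at 6.52 and its adjusted p was 0.00184 (without A) or 0.00207 (without B), since the fit shares 1 estimate of spread over all groups.

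The *IL1B* change in *ERF* KD + *CIC* KO was 5.73 ± 1.77 (adjusted p = 0.234) and that in labelled *CIC* KO 5.82 ± 1.77 (adjusted p = 1.0). Without labelled *CIC* KO replicate B the latter was 0.84. The interaction was -6.62 ± 2.14 (adjusted p = 0.152), and it became -7.59 (adjusted p = 0.00781) without labelled *CIC* KO replicate A and -1.63 (adjusted p = 0.71) without replicate B. IL1B-201 held at least 97.2% of the counts in every group but WT.

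The 3 genes closest to *IL1B* over the 8 libraries were *HSPA8* and *ZNF232* (r = 0.985 each) and *CCDC93* (r = 0.983). *HSPA8*, a constitutive heat-shock chaperone, ran from 1360 CPM in WT replicate A to 2020 CPM in labelled *ERF* KD replicate B. It too was low in labelled *CIC* KO replicate A (1420 CPM) and high in replicate B (1920 CPM), over a much narrower range than *IL1B*. These genes were picked for their likeness over the same 8 libraries, so the shared pattern is a description and no added evidence.

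*IL1A*, which codes for the cell-bound alarmin of the pair, was at 0.332 and 0.408 CPM in WT. It was at 0.624 and 0.844 CPM in labelled *ERF* KD, 0.325 and 1.11 CPM in labelled *CIC* KO, and 0.423 and 0.959 CPM in *ERF* KD + *CIC* KO. These values rest on 7 to 23 reads a library. The log2 differences from WT were 0.98 ± 0.75, 0.94 ± 0.75 and 0.87 ± 0.756, and none passed (adjusted p from 0.474 to 1.0). *IL18*, an interleukin-1 relative that epithelia store as a precursor, lay between 14.8 and 23.6 CPM in all 8 libraries, its groups overlapped, and its log2 differences from WT were 0.01, 0.04 and 0.12, each ± 0.242. Only 57.2% to 69.8% of the *IL18* counts were on protein-coding transcripts, and 9.13% of the 31-base words of IL18-201 recur in transcripts of other genes.

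*CXCL8*, the neutrophil chemoattractant interleukin-8, had the highest mean TPM of the 4 chemokines and varied between replicates as *IL1B* did. WT held 0.902 and 4.69 CPM and labelled *ERF* KD 8.69 and 15.6 CPM, so these did not overlap. Labelled *CIC* KO held 0.93 and 14.1 CPM, and *ERF* KD + *CIC* KO 9.02 and 4.62 CPM, and both overlapped WT. The log2 changes against WT were 2.13 ± 1.09 (adjusted p = 0.278), 1.43 ± 1.08 (adjusted p = 1.0) and 1.3 ± 1.08 (adjusted p = 0.633). Without labelled *CIC* KO replicate B the second was -1.58, and the interaction went from -2.26 to 0.75.

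*MMP1*, an interstitial collagenase, had the profile nearest to *CXCL8* (r = 0.99), followed by *NGDN* (0.988) and *RUVBL1* (0.977). *MMP1* was at 0.712 and 5.25 CPM in WT, 13.3 and 14.5 in labelled *ERF* KD, 0.837 and 16.6 in labelled *CIC* KO, and 12.7 and 5.58 in *ERF* KD + *CIC* KO. It was picked for this likeness, so the values are a description. Among the 9 tested genes, *IL1B* and *CXCL8* correlated most closely over the 8 libraries (r = 0.873), while r was 0.044 for *IL6* and *CXCL1*.

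*CXCL1*, another neutrophil chemoattractant, was lowest in the double-loss cells. It was at 1.06 and 1.13 CPM there, below the 1.71 and 5.25 CPM of WT, the 3.75 and 11.7 CPM of labelled *ERF* KD and the 1.63 and 5.92 CPM of labelled *CIC* KO. No library of another group was that low. Against labelled *ERF* KD the log2 difference was -2.81 ± 0.823, with edgeR adjusted p = 0.064 and adjusted p = 0.00466 with the replicate block. It was -2.81 without either library labelled *CIC* KO (adjusted p = 0.0436 without A and 0.0447 without B), -3.41 without labelled *ERF* KD replicate A (adjusted p = 0.0444) and -1.77 without its replicate B (adjusted p = 0.266). Against WT the differences were 1.15 ± 0.753 for labelled *ERF* KD, 0.12 ± 0.757 for labelled *CIC* KO and -1.66 ± 0.817 for *ERF* KD + *CIC* KO, with adjusted p of 0.399, 1.0 and 0.422. Single libraries set much of these values. The first ran from 0.11 without labelled *ERF* KD replicate B to 2.17 without WT replicate B, and the last from -0.64 without WT replicate B to -2.26 without WT replicate A. The interaction was -2.93 ± 1.11 (adjusted p = 0.216, and adjusted p = 0.0285 with the block), and -1.72 without labelled *CIC* KO replicate B to -3.95 without WT replicate B.

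*CXCL2*, which codes for a close relative on the same receptor, did not share the *CXCL1* values. It was at 1.04 and 1.02 CPM in WT, 1.2 and 1.69 in labelled *ERF* KD, 1.16 and 2.02 in labelled *CIC* KO, and 1.9 and 1.41 in *ERF* KD + *CIC* KO. Each group lay above WT without overlap, by 0.48 ± 0.469, 0.62 ± 0.467 and 0.68 ± 0.467 on the log2 scale, and none passed (adjusted p from 0.557 to 1.0). The transcripts of the pair are alike enough to share reads: 16.1% of the 31-base words of CXCL1-201 and 20.4% of those of the leading *CXCL2* transcript occur in other genes, chiefly in each other. *CCL20*, which attracts dendritic cells and lymphocytes through *CCR6*, was seen in 1 and 2 reads in WT, 2 and 8 in labelled *ERF* KD, 1 and 7 in labelled *CIC* KO, and 8 and 6 in *ERF* KD + *CIC* KO. Its double-loss level was 4.59 times WT on 14 against 3 reads (counting interval 1.28 to 24.9).

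*IL6*, the cytokine that signals through *IL6ST* to STAT3, was at 9.55 and 18.4 CPM in WT and 9.89 and 20.6 CPM in labelled *ERF* KD, which are nearly the same pair of values. Labelled *CIC* KO held 9.72 and 30.5 CPM. *ERF* KD + *CIC* KO held 40.8 and 21.4 CPM and was the only group not to overlap WT. The log2 changes were 0.13 ± 0.595, 0.53 ± 0.592 and 1.16 ± 0.594 in that order (adjusted p = 0.923, 1.0 and 0.441). *IL6* shares 428 exonic bases with the antisense gene *AC073072.1* and 46 with *STEAP1B* on the other strand, and whether counting used strand is not given in the sources used here.

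*LIF*, the leukemia inhibitory factor of the same family, went the other way. It was at 35.5 and 44.1 CPM in WT and 34.1 and 44.5 in labelled *CIC* KO, but at 20.3 and 31.3 in labelled *ERF* KD and 25.1 and 29 in *ERF* KD + *CIC* KO. The latter groups lay below WT without overlap. The change was -0.63 ± 0.237 in labelled *ERF* KD, with edgeR adjusted p = 0.145 and adjusted p = 0.0137 with the replicate block. Unblocked, it was -0.34 (adjusted p = 0.449) without labelled *ERF* KD replicate A and -0.97 (adjusted p = 0.0635) without its replicate B. It was -0.56 ± 0.237 in *ERF* KD + *CIC* KO (adjusted p = 0.367) and -0.02 ± 0.235 in labelled *CIC* KO (adjusted p = 1.0). Labelled *ERF* KD minus labelled *CIC* KO was -0.61 ± 0.237 (adjusted p = 0.169, and adjusted p = 0.0167 with the block), and from -0.33 to -0.95 without labelled *ERF* KD replicate A or B. *LIF* shares 175 and 92 exonic bases with the antisense genes *AC004264.1* and *LIF-AS1*.

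**Figure D2:**
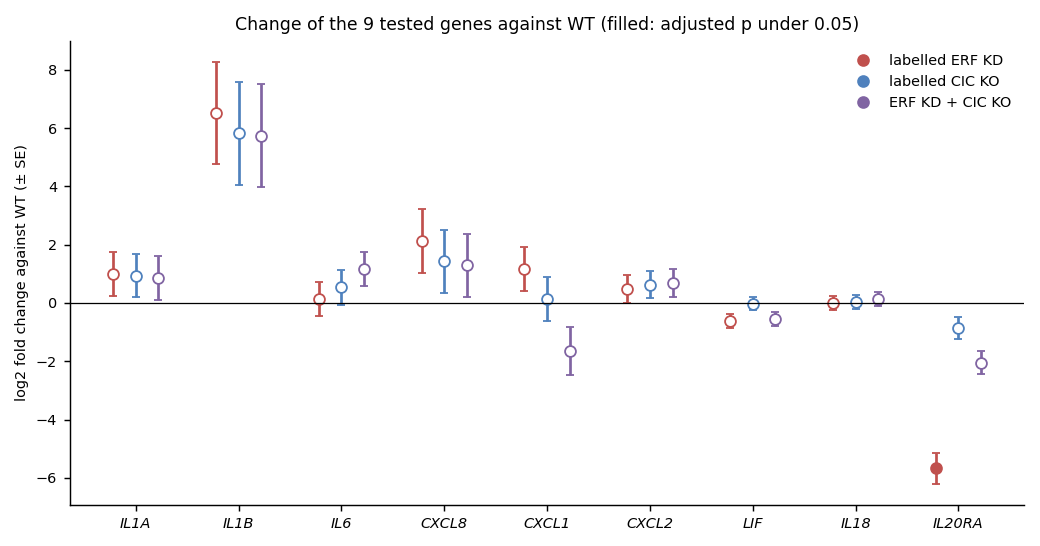
Log2 fold change against WT for the 9 tested genes, with standard errors, in the 2 single-loss groups and the double-loss group. Filled points have an adjusted p under 0.05, which holds for *IL20RA* in the cells labelled *ERF* KD alone, while *IL1B* stands highest with the widest errors.

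Counted together, 1 of the 9 tested genes was called against WT in labelled *ERF* KD (*IL20RA*, down), where 10.1% of all genes tested were called. With the replicate block 3 were called, *IL1B* and *LIF* joining, and 18.2% of all genes. In labelled *CIC* KO against WT none was called, as for all genes (0%), although 587 genes had an unadjusted p under 0.05, *IL1B* among them, and DESeq2 called 1 of the 9. None was called in *ERF* KD + *CIC* KO against WT where 0.0682% of all genes were, 3 had an unadjusted p under 0.05, DESeq2 called 2, and the block called 1 and 2.49% of all genes. Setting the double loss against labelled *ERF* KD, 1 was called (up) where 11.7% of all genes were, and 2 with the block where 20.6% were. Against labelled *CIC* KO none was called by edgeR or DESeq2, with 0% of all genes called and 1 of the 9 at an unadjusted p under 0.05. Between the single-loss groups 1 was called (down) against 9.4% of all genes, and 2 with the block against 16.5%. For the interaction it was 1 (up) against 4.15%, and 2 with the block against 9.55%. The share of all genes called by DESeq2 is not given, so its counts stand without a background.

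The median log2 change of the 9 genes against WT was 0.48 in labelled *ERF* KD, 0.53 under the label *CIC* KO and 0.68 in the double-loss line. The median of all genes was 0.0058, 0.012 and 0.0018, which TMM normalization keeps near 0. The medians of the 9 are the values of *CXCL2*, *IL6* and *CXCL2* in that order, none of them called. The *IL6* value was -0.52 without labelled *CIC* KO replicate B. Whether the 9 genes shifted as a set was not tested. Groups did not overlap WT for 6 of the 9 genes in labelled *ERF* KD (4 higher, 2 lower), where 56.3% of all genes did not overlap. The count was 3 of 9 in labelled *CIC* KO against 32.2% of all genes, with *IL1B* included on 2 reads against 1 in each WT library. It was 7 of 9 in *ERF* KD + *CIC* KO (4 higher, 3 lower) against 49.5%. The single-loss shares are close to the background. No count was tested against its share, the double-loss one included. Each count includes *IL20RA*, whose lower level was already known, and the other genes too were chosen with earlier results of these data known. The 3 comparisons share the WT libraries.

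In most groups the spread between replicates leaned to 1 side in these genes, as it did in some other lists. Replicate B was higher than replicate A for 8 of the 9 genes in WT and 8 in labelled *ERF* KD. In labelled *CIC* KO 8 were higher in B and *IL20RA* was equal (within 0.005 on the log2 scale), and 5 were higher in the double-loss line, while between 48.8% and 50.1% of all genes were higher in B. The median difference on log2(CPM + 0.5) was 0.32, 0.41, 0.96 and 0.06 in that order. In labelled *CIC* KO 4 of the 9 differed by at least 1 on that scale, and 4.52% of all genes did. On CPM with nothing added 5 of the 9 differed at least 2-fold, *IL1A* joining, and 9.69% of all genes did. *IL1B*, *CXCL8*, *IL6* and *CXCL2* were higher in A than in B in *ERF* KD + *CIC* KO, the reverse of labelled *CIC* KO.

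**Figure D3:**
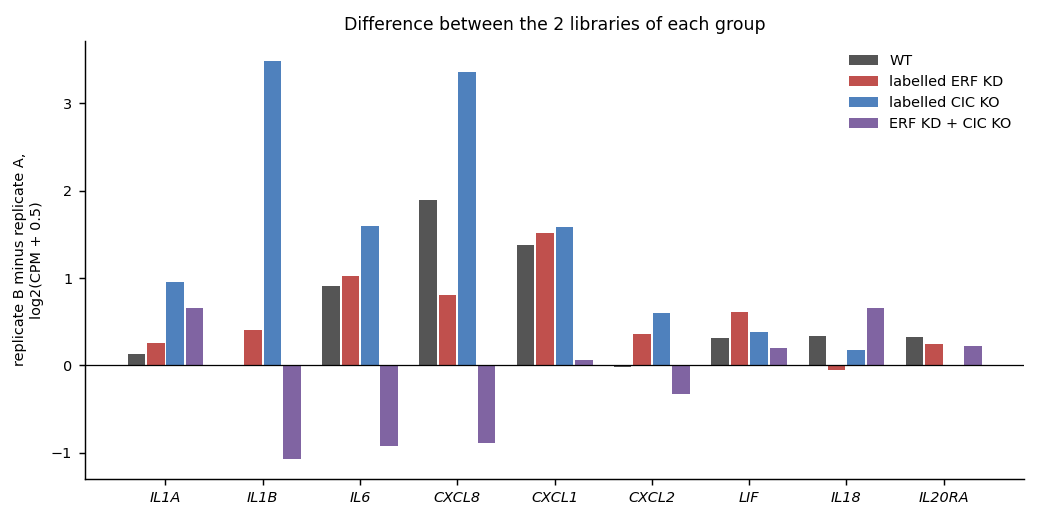
Replicate B minus replicate A on log2(CPM + 0.5) for the 9 tested genes, in each of the 4 groups. *IL1B* and *CXCL8* differ most in labelled *CIC* KO, by 3.49 and 3.36, whereas in *ERF* KD + *CIC* KO their differences are -1.07 and -0.89.

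The NF-kB lists were not split alike by the letters. Of 16 NF-kB subunits and feedback genes 12 were higher in B in WT, 11 in labelled *ERF* KD, 12 in labelled *CIC* KO and 7 in the double-loss line. Of 9 tested NF-kB targets that are not cytokines the counts were 5, 2, 4 and 4, with 2 genes higher in B in every group and 3 lower in every group. *TNFAIP3*, the A20 feedback inhibitor, was at 21.8 and 71.6 CPM in WT, 10.8 and 52.8 in labelled *ERF* KD, 30.8 and 119 in labelled *CIC* KO, and 18.1 and 36.8 in *ERF* KD + *CIC* KO, higher in B each time. *ICAM1*, a leukocyte adhesion molecule, was lower in B each time, at 34.2 and 25.2 CPM, 23.6 and 6.95, 36.1 and 29.3, and 53.1 and 25.8 in the same order. *PTGS2*, which makes prostaglandins, went with *TNFAIP3*, and *TNFAIP2* and *IRF1* with *ICAM1*.

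The summed leukocyte list lay between 29.2 and 66.4 CPM and was higher in B in every group, but its 4 tested genes differed. *CD68*, a lysosomal protein that other cells make as well, went from 14.0 to 42.7 CPM in WT and from 21.6 to 51.8 CPM in labelled *CIC* KO. *CD14* was lower in B in every group, at 4.94 and 3.11 CPM in WT and 6.56 and 2.36 CPM in labelled *CIC* KO. *CSF1R*, the receptor of macrophage colony-stimulating factor, was at 8.97 to 13.4 CPM in 6 libraries and at 1.39 and 0.646 CPM in labelled *ERF* KD (log2 -3.23 against WT, edgeR adjusted p = 0.000907). *CD3E*, *MS4A1*, *TYROBP* and *AIF1* were at or near 0 throughout. What the letters stand for is not given by the labels.

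Of 80 tested genes on 9 pathway lists, 14 fell and 1 rose in labelled *ERF* KD against WT (edgeR adjusted p under 0.05), which is 18.8% where 10.1% of all genes were called, 890 down and 587 up. With the replicate block 24 fell and 5 rose, where 18.2% of all genes were called. These are the libraries with lower epithelial and higher mesenchymal markers, whose part in these values was not tested. The lists were chosen with earlier results of these data known, so the shares are a description and not independent evidence. For each list's calls in this comparison below, the same shares of all genes apply, 10.1% and 18.2% with the block.

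Of 12 receptor genes 9 were tested, and 3 fell in labelled *ERF* KD while none rose. With the block 4 fell and 2 rose. The median over the 9 was -1.01. *IL1R1*, the signaling interleukin-1 receptor, was at 9.55 and 11.6 CPM in WT and 0.576 and 1.54 CPM in labelled *ERF* KD (log2 -3.32, adjusted p = 0.00421). *IL1R2*, its decoy, was at 17.5 and 43.3 against 0.432 and 2.33 CPM (-4.46, adjusted p = 0.0246). *IL6R* was at 12.6 and 11.1 against 1.54 and 3.33 CPM (-2.28, adjusted p = 0.00995).

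The same 3 receptor genes in *ERF* KD + *CIC* KO were at 5.76 and 4.96, 14.3 and 55.0, and 29 and 17.3 CPM. Each rose against labelled *ERF* KD at an adjusted p under 0.05, where 11.7% of all genes were called. The interaction passed for *IL1R1* (3.39, adjusted p = 0.025) and *IL6R* (2.55, adjusted p = 0.0382) and for *IL1R2* with the replicate block alone (3.97, adjusted p = 0.136 without it and 0.000253 with it). It passed for 4.15% of all genes, and for 9.55% with the block. The rise and the interaction use the same low labelled *ERF* KD libraries as the fall above, so they are not independent of it. *IL1RAP*, *IL6ST* and *LIFR*, the shared signaling chains, did not pass against WT in labelled *ERF* KD, at 0.47, 0.18 and 0.68. With the block *IL1RAP* (adjusted p = 0.0302) and *LIFR* (adjusted p = 0.0243) did, and *LIFR* also in *ERF* KD + *CIC* KO (0.86, adjusted p = 0.122, and adjusted p = 0.043 with the block). *IL18R1*, a receptor chain for interleukin-18, was at -1.39 (adjusted p = 0.0837, and adjusted p = 0.0428 with the block). *CXCR1* and *CXCR2*, the receptors of *CXCL8*, *CXCL1* and *CXCL2*, were below the filter, at no more than 0.24 CPM in any library. *IL20RB* was at 1.33 and 2.04 CPM in WT and 0.528 and 1.14 in labelled *ERF* KD (-1.01, adjusted p = 0.306), so of the receptor pair only *IL20RA* passed.

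*IL1RN*, which codes for the receptor antagonist that blocks interleukin-1, was low where *IL1B* was high in labelled *ERF* KD. It was at 4.7 and 18.3 CPM in WT and 0.672 and 2.48 CPM in labelled *ERF* KD, a log2 change of -2.86 with adjusted p = 0.15, and adjusted p = 0.000097 with the replicate block. In labelled *CIC* KO it was at 7.49 and 35.9 CPM, and the double-loss line held 2.75 and 13.5 CPM. The opposition did not hold in labelled *CIC* KO, whose replicate B had the highest *IL1RN* and the highest *IL1B* of all libraries. Of the 13 genes of interleukin-1 relatives, antagonists and processing, 10 were tested. *IL36RN*, another antagonist, fell (-5.18, adjusted p = 0.000418) and *NLRP1*, an inflammasome sensor, rose (2.37, adjusted p = 0.0066) in labelled *ERF* KD. With the block 3 fell and 1 rose. *CASP1*, which matures interleukin-1 beta, was at 0.475 and 0.357 CPM in WT and 2.16 and 0.348 in labelled *ERF* KD (adjusted p = 0.391).

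Among 12 other chemokine genes 7 were tested, 3 fell in labelled *ERF* KD and none rose, with the block too. Of all genes 10.1% were called there, and 18.2% with the block. *CXCL16* was at 38.4 and 47.1 CPM in WT and 5.19 and 2.93 in labelled *ERF* KD (-3.39, adjusted p = 0.000181). *CX3CL1* (-4.56) and *CCL5* (-3.27) fell as well, with adjusted p of 0.00879 and 0.00993. *CCL5* was at 7.5 and 10.1 CPM in WT and between 0.674 and 2.92 CPM in the other 6 libraries. *CXCL3*, the third close relative of *CXCL1*, was at most 1.14 CPM and did not pass (0.98, adjusted p = 0.486).

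None of the 9 tested genes of the interleukin-6 family and STAT3 feedback was called in labelled *ERF* KD, their median being -0.22, and 1 rose with the block, *IL11* (1.38, adjusted p = 0.0805, and adjusted p = 0.0312 with the block). Of 16 NF-kB subunits and feedback genes 2 fell and none rose, where 10.1% of all genes were called. The 2 were *NFKB2* at -0.76 (edgeR adjusted p = 0.0458) and *REL* at -0.73 (adjusted p = 0.046). With the block 5 of the 16 fell. Among 9 tested NF-kB targets that are not cytokines, *MMP9* fell (-3.35, adjusted p = 0.0252), and *LCN2* fell from 2.94 and 1.12 CPM to 0 reads in both libraries, and 4 fell with the block. *TLR2* (-2.92, adjusted p = 0.024) and *TLR6* (-2.57, adjusted p = 0.00719), receptors for bacterial lipopeptides, fell among 11 upstream genes, with *TLR3* added by the block (-2.64, adjusted p = 0.09, and adjusted p = 0.00834 with it), and *TNF* had no read in any library. The 6 mRNA decay and binding genes had none called, and 1 with the block. *IL22RA1* fell (-2.03, adjusted p = 0.038), the only call among 4 tested partners and ligands of *IL20RA*, to which the block added *IL24* (2.11, adjusted p = 0.141, and adjusted p = 0.0359 with the block). In *ERF* KD + *CIC* KO against WT, no gene of these 9 lists was called, with 10 of 14653 genes called in all, and *LIFR* alone with the block. Against labelled *ERF* KD, 11 of the 80 rose and 2 fell (16.2%, where 11.7% of all genes were called). That share is likewise a description of lists chosen with earlier results known. Besides the 3 receptors, *IL36RN* (4.42), *TLR2* (3.63), *CXCL16* (3.61), *IL22RA1* (2.82), *PYCARD* (1.41), *TNIP1* (1.09), *NFKB2* (0.92) and *CASP4* (0.73) rose, and *TLR4* (-3.26) and *NLRP1* (-2.15) fell. With the block 24 rose and 6 fell, where 20.6% of all genes were called.

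**Figure D4:**
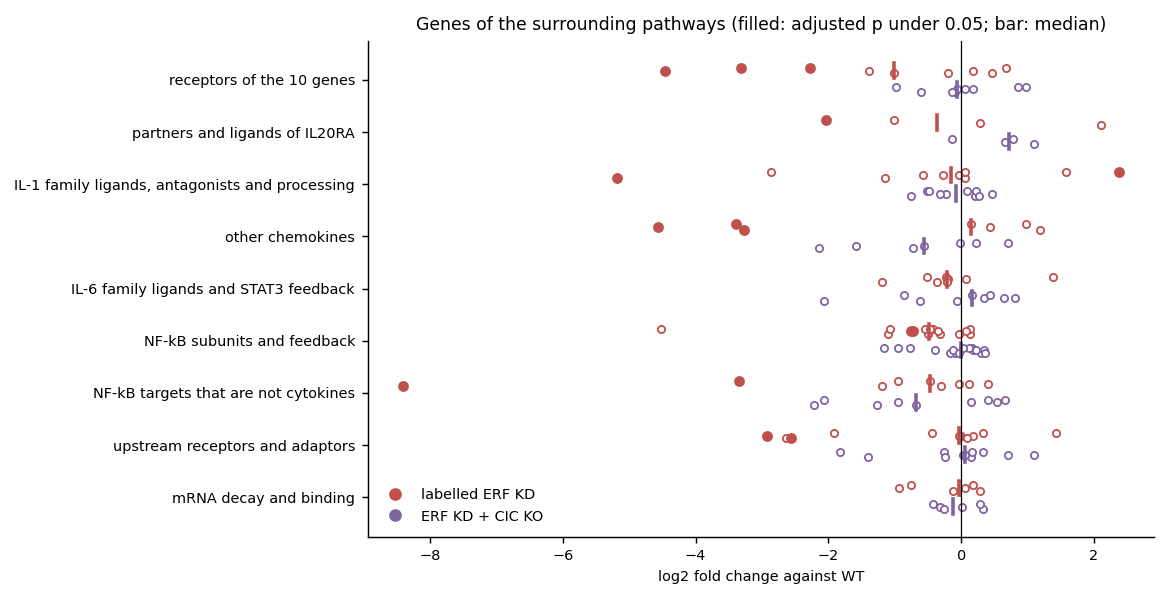
Log2 fold change against WT of the tested genes of 9 pathway lists, in labelled *ERF* KD and the double-loss line, with filled points for an adjusted p under 0.05 and bars for list medians. The filled points all belong to labelled *ERF* KD and all but *NLRP1* lie below 0. The leftmost point is *LCN2*, whose fitted value is set by 0 reads in both of those libraries and is no measure of size.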

How the data were processed

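The authors deposited, for each of 8 RNA-seq libraries, estimated counts per transcript (not normalized) and TPM, in kallisto's columns. The submitters' notes name build hg19 and the study's methods name RSEM. The annotation and strandedness are not given in the sources used here. Of 180253 transcripts, 153245 (85.0%) were found in GENCODE release 29 by identifier, and they held 93.2% to 93.3% of a library's counts. Gene sums of the estimated counts were rounded, and deposited TPM values were added per gene. After TMM normalization, edgeR 4.0.16 was used for the test (filterByExpr, glmQLFit, glmQLFTest, R 4.3.3) in 1 fit of the 4 groups, with Benjamini-Hochberg adjustment over 14653 genes and a threshold of 0.05.

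Replicates differed beyond sampling noise (chi-square per degree of freedom 21.7 to 43.4). The letters were taken to pair libraries, since the B minus A differences of any 2 groups correlated across genes at 0.215 to 0.441, so blocked values stand beside the calls they change among the 10 genes, and as counts beside each list. With 2 libraries against 2, an exact permutation test of 1 gene cannot go below 0.333 (two-sided). Alternatives were DESeq2 1.42.0, limma 3.58.1 on log2(TPM + 1) and log2(TPM + 0.1), no filter, length-scaled counts, a fit of only the groups compared, the block, and each library left out. The 10 genes and the lists were chosen with earlier results of these data known. All 10 were named. Of each list, at most the 4 genes with the largest change among those called in a comparison described, and direct receptors or antagonists, were named. *TNFAIP3*, *PTGS2*, *ICAM1*, *TNFAIP2*, *IRF1*, *CASP1*, *CD14*, *CD68*, *PTPRC*, *IL11*, *IL24*, *TLR3* and *TNF* were named after their values were seen. Genes nearest to *IL1B*, *CXCL8* and *IL20RA* were the 3 protein-coding genes of at least 1 CPM with the highest Pearson r. Promoters are from RefSeq (GRCh38.p14).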

Additional observations from a re-analysis of the deposited data

Results flagged for a closer look

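In edgeR with the filter on low counts and no replicate block, *IL20RA* was the one gene of the 10 whose response to one loss differed with the presence of the other by a test of the difference itself. The interaction of the losses was 4.47 ± 0.669 on the log2 scale (edgeR adjusted p = 0.00992), from 98 and 116 reads in WT, 1 and 3 in labelled *ERF* KD, 63 and 61 in labelled *CIC* KO, and 27 and 25 in *ERF* KD + *CIC* KO. It rests largely on the fall in labelled *ERF* KD for which the gene was taken, so it is a description and not independent evidence, and on log2(TPM + 1) its adjusted p was 0.0526. The interaction also passed for *CXCL1* with the replicate block (-2.62, adjusted p = 0.0285), for *IL1B* in DESeq2 (-6.79, adjusted p = 0.00522), and for 4 of the 10 genes without the filter. Of all genes 4.15% passed in edgeR with the filter, and 9.55% with the block as well. For DESeq2 and without the filter the share is not given, so those counts have no background. The edgeR *IL1B* interaction was much smaller without labelled *CIC* KO replicate B, as given above. The groups of 2 libraries are too small for a search for outlying samples.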

How the results depend on the processing

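The number of the 10 genes called changed with the test. The share of all genes called is given only for edgeR with the filter, with and without the block. The other counts therefore cannot be set against a background. Against WT, 1 was called in labelled *ERF* KD, where DESeq2, limma on log2(TPM + 0.1) and a fit of only the groups compared called 2, the replicate block 3 and no filter on low counts 5, and leaving out a library gave 1 to 2. In labelled *CIC* KO the count of 0 became 1 with DESeq2 and 2 without a filter. In *ERF* KD + *CIC* KO the count of 0 became 2 with DESeq2, 1 with the block and 5 without a filter. Against labelled *ERF* KD the double-loss count of 1 became 2 with DESeq2, the groups compared or the block, 3 without a filter and 0 on log2(TPM + 1), and was 1 to 2 with a library left out. Against labelled *CIC* KO it became 1 without a filter. Between the single-loss groups the count of 1 became 2 with the block or no filter, and was 1 to 2 with a library left out. For the interaction, 1 became 2 with DESeq2 or the block, 4 without a filter, 0 on log2(TPM + 1), and was 1 to 2 with a library left out. Without a filter 22195 genes were fitted, and the cause of the higher counts was not tested. Of the single-gene values under the alternatives, 476 kept direction and side of the threshold, 37 passed it, 2 no longer did and 18 changed sign. With 1 library left out, values against WT that changed sign ran as follows. In labelled *CIC* KO, *IL1A* ran from -0.18 to 1.57, *IL6* from -0.52 to 1.13 and *CXCL8* from -1.58 to 3.05, each lowest without its replicate B. There *CXCL1* ran from -1.09 to 1.14 (-0.48 without WT replicate A), *LIF* from -0.22 to 0.16 and *IL18* from -0.12 to 0.23. In labelled *ERF* KD, *IL6* ran from -0.49 to 0.68 and *IL18* from -0.16 to 0.19 (-0.01 in a fit of only the groups compared). In *ERF* KD + *CIC* KO, *IL18* ran from -0.25 to 0.42. The *CXCL8* interaction ran from -3.88 to 0.75. A lone library was assumed to vary like the other groups. *IL20RA* kept its sign and call in labelled *ERF* KD under each alternative run. Depth limits *IL1A*, *CCL20*, *IL1B* in WT and *IL20RA* in labelled *ERF* KD, all on few reads.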
